A study of Homo sapiens with 2 samples.

Results

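The zinc finger genes described here are the protein-coding genes of human chromosome 19 whose symbol is ZNF followed by a number in GENCODE release 29. The annotation held 240 such genes, and every deposited peak listed under one of them was taken. Peaks were present for 120 genes in replicate 1 and 149 in replicate 2 (50% and 62.1%), for 161 genes in either library and 108 in both. Of 235 ZNF genes of other chromosomes, 171 and 187 had a peak. Of 19476 other protein-coding genes, 11946 and 11991 had one. The 343 rows of replicate 1 and 484 rows of replicate 2 came to 334 and 473 distinct peaks, of 96682 and 105125 in the whole series, or 0.345% and 0.450%. No member had to be left out: 79 genes had no peak in either library, 12 had one in replicate 1 only and 41 in replicate 2 only.

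The series was designed to identify RNA elements bound to CCR4-NOT, the complex that shortens poly(A) tails of messenger RNA. Its single group, TRACER, a name whose meaning is not given in the labels, held 2 libraries of cytoplasmic RNA from HEK293T, an established human embryonic kidney line. Both libraries came from cells given doxycycline, a drug used to switch on introduced genes, at 3 ug/mL for 24 hours, with Trizol extraction and a Qiagen protocol for microRNA libraries. No control, input or untreated library was analysed, the agent that doxycycline induced is not named, and separate cultures are not stated. The spread between libraries may therefore be technical, no test between conditions was possible, and every ± is the SD over n = 2 libraries.

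Most genes of this family encode proteins in which C2H2 zinc fingers, small folds that hold a zinc ion with a pair of cysteines and a pair of histidines, are repeated in tandem, usually in 1 long last coding exon. In many of them a KRAB domain, encoded by separate upstream exons, recruits the corepressor TRIM28, which silences chromatin and transposable elements. The family grew by gene duplication in clusters on chromosome 19, so finger and KRAB sequences are alike between genes. In this annotation 204 members had a KRAB match and 36 did not. Of the 240 members, 239 had at least 1 whole finger match, with a median of 12 and a maximum of 36, and ZNF738 had none.

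The repeat itself is shown because the finger peaks are placed within it. A finger of 21 residues and a linker of 7 residues form a unit of 84 nt, found 2494 times in 236 genes and counted from the first cysteine codon. The most frequent base at each position of the unit, over all of those repeats, is given in 3 stretches of 28 nt.

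finger unit, nt 1 to 28: tgtaaagaatgtgggaaagcctttagtc
finger unit, nt 29 to 56: agaactcaaaccttactaaacatcagag
finger unit, nt 57 to 84: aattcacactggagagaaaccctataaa

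The next sequences are the starts of finger units that held a summit, the position CLIPper marks as the top of a peak, in both libraries (ZNF121 and ZNF574) or a miR-181 site (ZNF146), with the 6-base site in capitals. A miR-181 site of ZNF121 runs across the start of its unit, so it is not whole in the stretch shown and has no capitals. All are from GENCODE transcripts on GRCh38.

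ZNF121, chr19:9566144-9566173, minus strand: tgtaaggactgtgggaaagcctttgctaca
ZNF574, chr19:42080263-42080292, plus strand: tgtggggactgtggcaaggctttcacgcaa
ZNF146, chr19:36236912-36236941, plus strand: tgtagtGAATGTggaacagcctttggccag

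The KRAB exons are represented by the windows around the summits of 3 KRAB regions found in both libraries, chosen to show how widely such sequence is shared. No searched motif lies in them, so they have no capitals.

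ZNF480, chr19:52314236-52314265, plus strand: caaggatgtgatgttggagaactacaggaa
ZNF766, chr19:52282115-52282144, plus strand: acttgacattcagggacgtggccatagaat
ZNF627, chr19:11614534-11614563, plus strand: tggcctttgaggatgtggctgtgaacttca

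The central 25 nt of these windows occurred exactly in transcripts of 4, 3 and 13 other genes. The 3′ UTR is represented by the 6 Pumilio elements, binding sites of the PUM proteins that recruit CCR4-NOT, which lay under peaks of both libraries. The 8-base element UGUANAUA, written with T, is in capitals.

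ZNF146, chr19:36237639-36237668, plus strand: aaaaattaagtTGTAAATAttggaaaggaa
ZNF460, chr19:57292912-57292941, plus strand: gagataaaggaTGTACATAtgaatgggcac
ZNF709, chr19:12463082-12463111, minus strand: tactgtataaaTGTAGATAatatgggaaag
ZNF850, chr19:36743491-36743520, minus strand: ttggtattattTGTAAATAaaagtatttgc
ZNF260, chr19:36512544-36512573, minus strand: ttgaaaggataTGTATATActcagttccca
ZNF543, chr19:57330148-57330177, plus strand: ggagataaggaTGTACATAtgtttggacac

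The member peaks were small. The median peak held 4 reads and spanned 26 nt in each library, 60.5% and 61.1% of peaks held only 3 or 4 reads, and the largest held 51 and 66 reads. Reads in distinct member peaks summed to 1970 in replicate 1 and 2854 in replicate 2, which was 0.124% and 0.172% of all peak reads. The member sum was 1.45 times as large in replicate 2 as in replicate 1, against 1.05 times for all peaks. Genes of the HEK293 line were present (VIM 494 and 517 reads, CDH2 143 and 136), and ALB, HBB, PTPRC and INS, genes of other tissues, had no peak. Sequencing depth is unknown, since a read can count in several peaks, and intervals below are exact 95% binomial intervals that cover counting error only.

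A few genes, most of them without a KRAB match, held much of the signal. ZNF146, a short protein that is almost entirely fingers, had 342 reads in replicate 1 and 453 in replicate 2 (397.5 ± 78.5), which was 16.9% and 15.5% of reads over member entries. The 12 genes with the most reads held 47.5% and 46.9%. The other leaders were ZNF581 (76 and 146 reads), ZNF428 (91 and 122), ZNF114 (52 and 133), ZNF90 (95 and 82), ZNF121 (59 and 73), ZNF507 (36 and 84), ZNF580 (49 and 69), ZNF787 (47 and 59), ZNF444 (42 and 63), ZNF561 (43 and 37) and ZNF264 (29 and 46). Replicate 2 was the higher library in all of these but ZNF90 and ZNF561. Across the 240 genes, log2(reads + 1) had a Pearson coefficient of 0.786 and a Spearman coefficient of 0.754 between libraries, as a description across genes that share libraries and sequence.

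**Figure D1:**
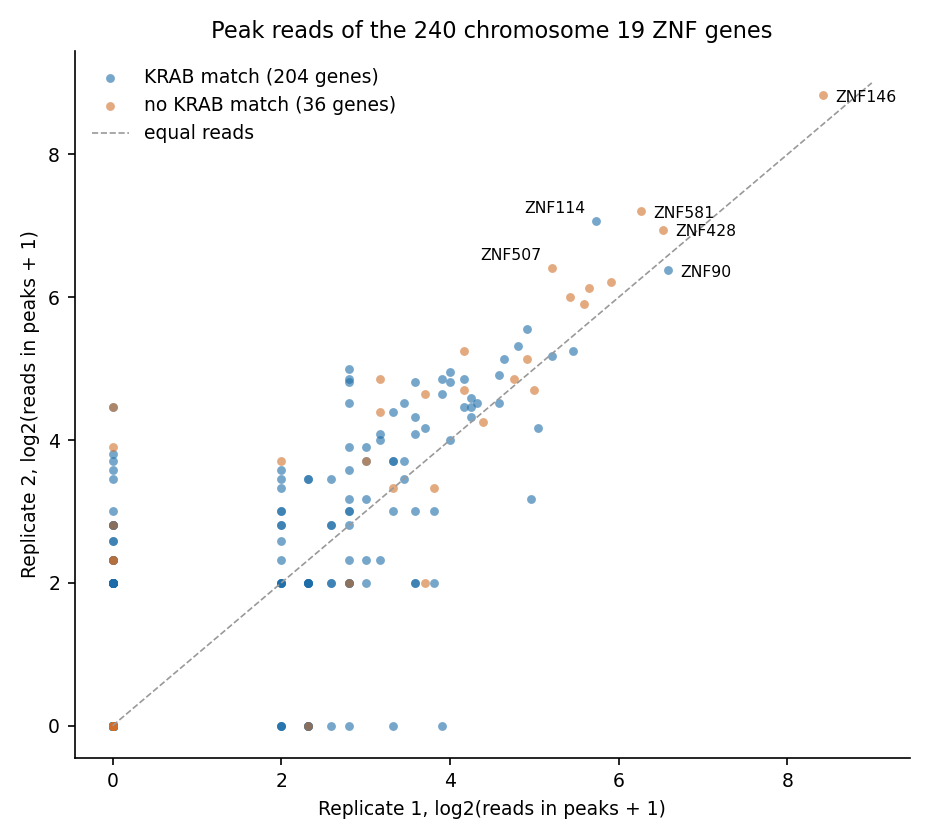
Each point is 1 of the 240 genes, with log2(reads in peaks + 1) in replicate 1 on the x axis and in replicate 2 on the y axis, coloured by KRAB match, and the dashed line marks equal reads. ZNF146 stands at the top right with 342 and 453 reads, and the points on the axes are genes with a peak in 1 library.

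Genes without a KRAB match carried more reads for their length. Of these 36 genes, 66.7% had a peak in replicate 1 and 77.8% in replicate 2, against 47.1% and 59.3% of the 204 KRAB genes. Their reads per kb of exon were 6.28 and 9.15, against 0.911 and 1.30 in KRAB genes. The gap was also present without single leaders: the values were 4.16 and 6.37 without ZNF146, and 0.790 and 1.12 for KRAB genes without ZNF114 and ZNF90. The median GC content of the finger exon was 64.9% in genes without KRAB and 40.4% in KRAB genes, and its part in the difference was not tested. In bulk RNA, a lower level of a transcript and less of the measured signal per transcript cannot be told apart, since no input library was analysed.

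Signal was also unequal among genomic clusters, taken as consecutive members less than 500 kb apart. The largest cluster, from ZNF264 to ZNF446 near the chromosome end, held 41 genes, of which 23 and 29 had a peak, with 271 and 402 reads. The cluster of 39 genes from ZNF175 to ZNF331, all with a KRAB match, had 14 and 21 genes with a peak and 124 and 204 reads. The 37 genes from ZNF101 to ZNF254 had 15 and 18 with a peak and 226 and 249 reads, of which ZNF90 gave 95 and 82. The median gene of that last cluster had 0 reads in each library.

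Some peaks listed under a member lie on another transcript. All peaks listed under ZNF114, 7 and 13 of them, fell outside its annotated gene (chr19:48270102-48287608), and those with 45 of 52 reads in replicate 1 lay in exons of ZSWIM9 on the same strand. In replicate 2, peaks with 128 of its 133 reads lay in exons of ZSWIM9 or CARD8-AS1. The ZNF114 values therefore do not describe the annotated ZNF114 transcript. All ZNF90 reads lay in a non-coding exon, and peaks with 91 and 76 of them lay in an overlapping transcribed processed pseudogene. The strongest of them, with 39 and 33 reads at chr19:20125326-20125411, had its central 25 nt in RPS16, a ribosomal protein gene, as well.

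Several other members had peaks in sequence shared with, or annotated as, other genes. The only peak of ZNF534 in each library, with 17 and 21 reads in its 3′ UTR, matched DUT, the dUTPase gene, and a pair of 3′ UTR regions of ZNF607 matched PHB, the prohibitin gene. Intron peaks of ZNF345 (8 and 14 reads) lay in the pseudogene RPL31P61, and those of ZNF761 (12 and 23 reads) in TPM3P9. In all, 44 of 334 and 64 of 473 member peaks, or 13.2% (9.74 to 17.3) and 13.5% (10.6 to 16.9), had the summit in an exon of a gene outside the family set. With peaks copied exactly in a gene that has no ZNF symbol added, the shares were 17.1% and 17.1% of peaks and 19.04% and 18.04% of reads. Reads at such places cannot be assigned to 1 gene, and ZNF581 and ZNF580 likewise share positions, ZNF581 holding 43 and 56 reads in its introns.

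**Figure D2:**
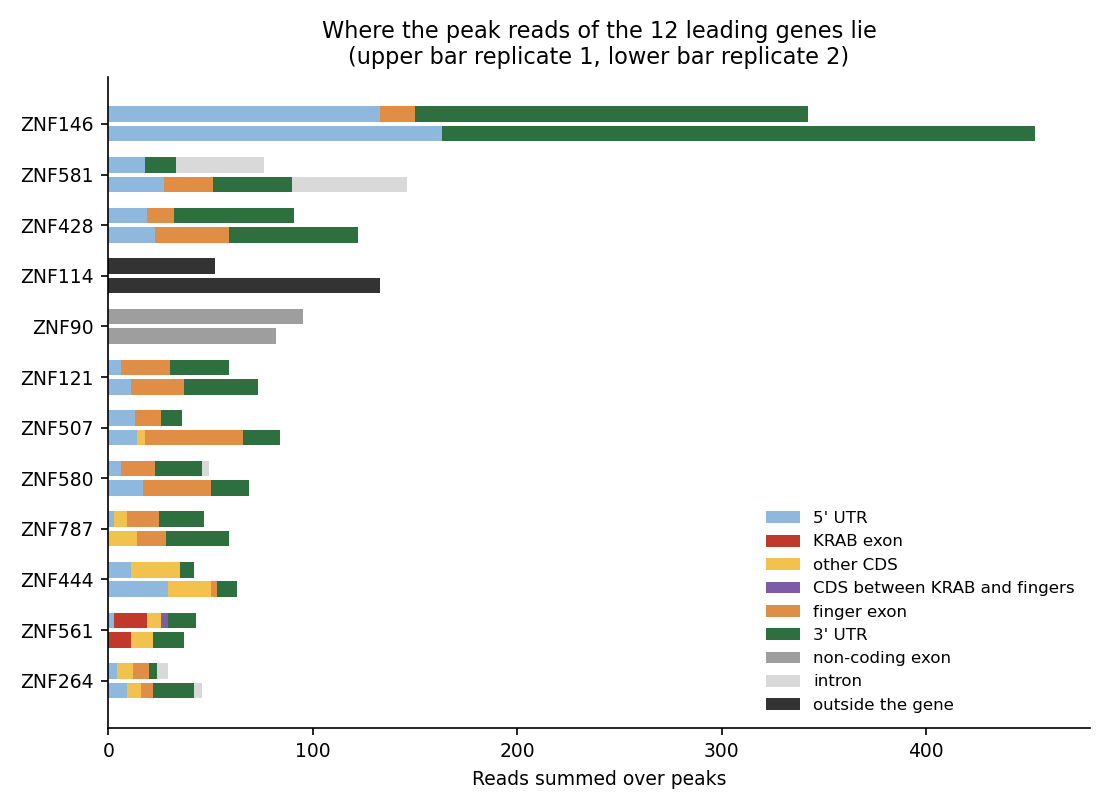
Bars give reads summed over peaks (x axis) for the 12 genes with the most reads, split by the region that holds the summit, the upper bar being replicate 1 and the lower replicate 2. ZNF146 is made mostly of 5′ UTR and 3′ UTR reads, all ZNF114 reads lie outside the gene and all ZNF90 reads in a non-coding exon.

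The main question was where in the transcripts the peaks sit. Summits were spread over UTRs and coding exons, with no region holding most of them. The 3′ UTR held 97 of 334 summits in replicate 1 and 134 of 473 in replicate 2, or 29.04% (24.2 to 34.2) and 28.3% (24.3 to 32.6). The finger exon held 74 and 145, or 22.2% (17.8 to 27.0) and 30.7% (26.5 to 35.0). The 5′ UTR held 59 and 75 (17.7% and 15.9%), and the KRAB exons 31 and 34, or 9.28% (6.39 to 12.9) and 7.19% (5.03 to 9.90). Coding exons between KRAB and fingers held 13 and 12, other coding sequence 13 and 26, non-coding exons 11 and 10, introns 28 and 23, and 8 and 14 lay outside the gene. The finger exon was the class whose share differed most between libraries, at 26.4% ± 6.01, against 28.7% ± 0.504 for the 3′ UTR. The order of these classes depends on the isoform chosen: 13 of 97 and 21 of 134 summits counted in the 3′ UTR also lie in a finger exon of another isoform of the gene. With coding sequence given priority, the finger exon held 30.6% and the 3′ UTR 24.4%.

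Region lengths put these shares in another order. The 3′ UTR made up 45.5% of the exonic length of the members, the finger exon 25.04%, non-coding exons 14.1%, the 5′ UTR 9.56% and the KRAB exons 2.10%. When the exonic summits of each gene were spread evenly over its exons, observed counts relative to that spread were highest in KRAB exons, at 6.22 and 4.57 (5.39 ± 1.16). The finger exon was near the even spread, at 0.937 in replicate 1 and 1.31 in replicate 2 (1.12 ± 0.262), and the libraries lay on different sides of it. The 3′ UTR was below it in each library, at 0.760 and 0.691 (0.726 ± 0.0491), and the 5′ UTR above it, at 1.48 and 1.40 (1.44 ± 0.0594). Among peaks of at least 10 reads the 3′ UTR stood above the even spread, at 1.28 ± 0.31, and the finger exon at 0.546 ± 0.572. Only 32 and 49 member peaks of all classes reached 10 reads. Several 3′ UTR regions of ZNF146 were among them in each library, the largest with 37 and 66 reads. The ratio at this level was not computed without ZNF146. Exons between KRAB and fingers stood at 4.09 and 2.38, on 13 and 12 summits.

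**Figure D3:**
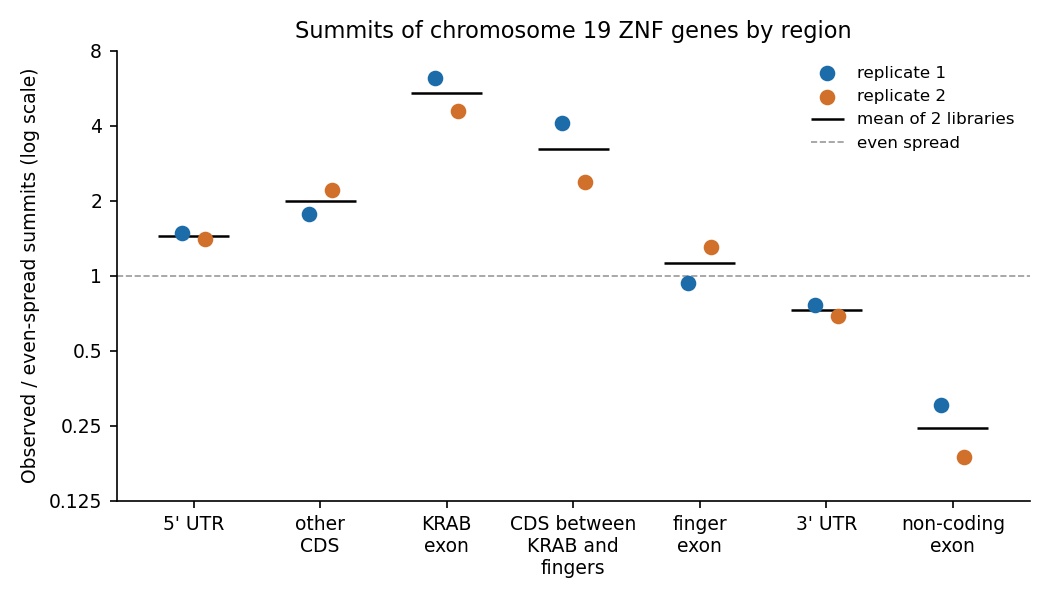
The y axis, on a log scale, is the number of summits divided by the number an even spread over the exons of each gene would give, by region on the x axis. Points are the 2 libraries and lines their mean. KRAB exons stand highest at 6.22 and 4.57, the finger exon lies on either side of 1, and the 3′ UTR lies below 1 in each library.

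Comparison sets show where the members differ from other genes. The coding sequence of members as a whole stood at 1.39 and 1.61, that of the ZNF genes of other chromosomes at 1.44 and 1.53, and that of other protein-coding genes at 1.92 and 1.94. In the 5′ UTR the values were 1.48 and 1.40 in members, 1.40 and 1.19 in other ZNF genes, and 0.838 and 0.830 in other protein-coding genes. The 3′ UTR values of members, 0.760 and 0.691, stood beside 0.802 and 0.767 in other protein-coding genes. Weighted by reads, the order was reversed in the 3′ UTR, at 0.979 and 0.928 in members and 0.785 and 0.765 in other protein-coding genes. In each library members were thus lower in coding sequence and higher in the 5′ UTR than other protein-coding genes. No test over 2 libraries was run. KRAB exons of ZNF genes on other chromosomes stood at 4.86 and 4.10, beside 6.22 and 4.57 in members.

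Among members, the 5′ UTR value was 2.20 and 1.90 in KRAB genes, and 0.908 and 0.934, near the even spread, in genes without a KRAB match. This difference was not tested. The finger exon of KRAB genes stood at 0.701 in replicate 1 and 1.30 in replicate 2, and that of genes without KRAB at 1.24 and 1.31. The libraries thus differed on the finger exon mainly in the KRAB genes, where 31 and 89 summits lay in it.

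Region classes also differed in how often a peak recurred. Of member peaks, 45.8% (40.4 to 51.3) in replicate 1 and 32.3% (28.1 to 36.8) in replicate 2 overlapped a peak of the other library by at least 1 nt on the same strand. All other peaks of the series gave 60.6% and 56.02%. The recurrence followed reads: it was 29.2% and 19.4% for member peaks of 3 to 4 reads, 63% and 43.0% for 5 to 9 reads, and 96.9% and 79.6% for 10 or more. At the same 3 read levels, other peaks gave 33.7% and 27.7%, 64.5% and 55.99%, and 92.1% and 88.4%. Member peaks were lower in both libraries at the 2 lower levels, but not in replicate 1 at 10 or more reads.

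By class, recurrence was 55.7% and 40.3% in the 3′ UTR, 47.5% and 33.3% in the 5′ UTR, 36.5% and 18.6% in the finger exon, and 29.03% and 26.5% in KRAB exons. Other coding sequence gave 53.8% and 26.9%, introns 50% and 73.9%, non-coding exons 54.5% and 60% and positions outside the gene 87.5% and 50%, each on 28 or fewer summits a library. Recurrence in those classes was thus as high as in the 3′ UTR or higher in at least 1 library, apart from other coding sequence. Peaks of both libraries merged into 648 regions, of which 148, in 70 genes, held a peak in each library. The 3′ UTR gave 53 of these, the finger exon 27, the 5′ UTR 25 and the KRAB exons 9. Finger exons had the most regions in all, 192, but 27 of them, 14.1%, were in both libraries, against 53 of 176, 30.1%, in the 3′ UTR.

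**Figure D4:**
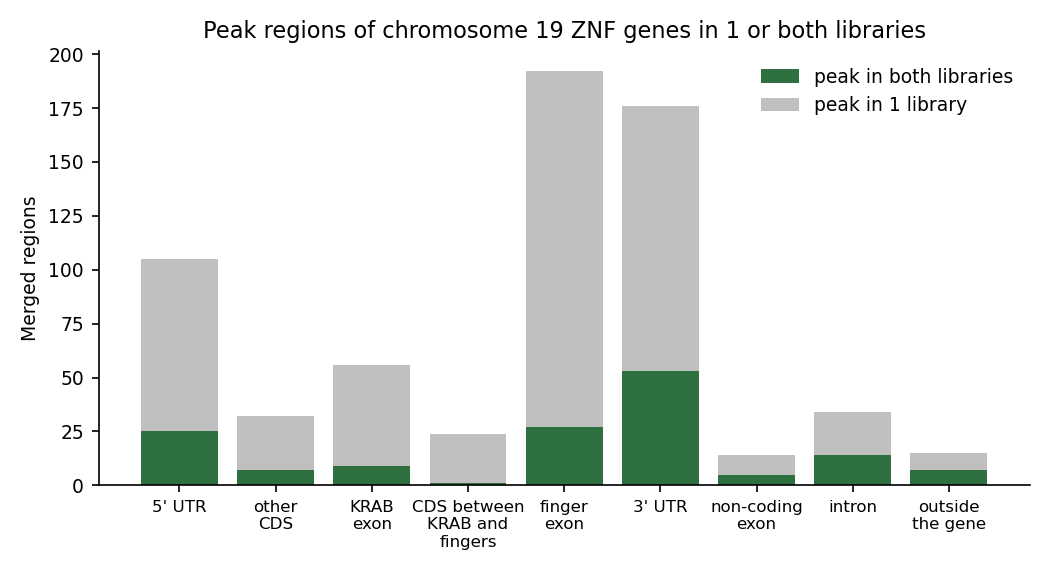
Bars count merged peak regions (y axis) by class (x axis), with the part found in both libraries in green and the part found in 1 library in grey. The finger exon has the most regions, 192, and the 3′ UTR the most found in both libraries, 53.

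ZNF146 had the most regions found in both libraries. There were 11 of them, 4 in the 5′ UTR and 7 in the 3′ UTR, and none in its finger exon. The largest 5′ UTR region, chr19:36228752-36228820, held 46 and 56 reads in its top peak, and the largest 3′ UTR region, chr19:36238300-36238350, held 37 and 66. Over the gene, reads in the 5′ UTR were 133 and 163, in the 3′ UTR 192 and 290, and in the finger exon 17 and 0. The finger exon of ZNF146 therefore had called peaks in replicate 1 only, while both its UTRs had peaks in each library. The smallest member peak held 3 reads, so reads too few to form a peak are not seen.

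ZNF428, which has a single finger, had the strongest member region, chr19:43607478-43607547 in the 3′ UTR, with 51 and 63 reads. It also had a 5′ UTR region of 13 and 23 reads and a finger-exon region of 13 and 10. ZNF444 had its strongest region in coding sequence outside the fingers, chr19:56146984-56147141, with 14 and 21 reads, and a 5′ UTR region of 8 and 20. ZNF787 had 3′ UTR reads of 22 and 31. These leaders had no exact copy of the summit sequence in another gene at the regions named.

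Finger-exon reads were led by ZNF507 (13 and 48 reads), ZNF121 (24 and 26), ZNF580 (17 and 33), ZNF358 (26 and 23) and ZNF428 (13 and 36), all without a KRAB match. A finger exon also codes for residues outside the fingers. ZNF121 had 3 finger-exon regions in both libraries and ZNF507 and ZNF580 had 3 each, with at most 10 reads in a top peak. ZNF358 had a pair, with 9 and 12 and with 8 and 8 reads. ZNF417 and ZNF587, genes of the same cluster with near-identical repeats, had 14 and 19 and 14 and 23 finger-exon reads, and the region of each that was found in both libraries had its central 25 nt in the other gene.

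Within the canonical repeats there were 26 summits in 21 genes in replicate 1 and 64 in 45 genes in replicate 2. The first 18 nt, which run from the first cysteine codon past the second, make up 21.4% of the unit. They held 9 of 26 summits, 34.6% (17.2 to 55.7), in replicate 1 and 39 of 64, 60.9% (47.9 to 72.9), in replicate 2. This stretch was chosen after the positions of the summits had been seen, so the values are a description. The interval of replicate 1 includes the even share and that of replicate 2 does not. Positions 19 to 60, 50% of the unit, held 30.8% and 17.2%, and the linker, the last 21 nt, held 23.1% and 18.8% for 25% of the unit.

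Sequence shared between genes was unequal along the unit, and its part in the summit positions was not tested. The linker had the largest copied share. Its share of summits was below its share of length in each library, but the intervals (8.97 to 43.6 and 10.1 to 30.5) include 25%. Over all canonical repeats, 36.3% of bases in the first 18 nt had an exact 25 nt copy in another gene, 15.6% of those in positions 19 to 60 and 42.8% of those in the linker. Among summits with no such copy the first 18 nt held 7 of 20 and 21 of 38, and with 1 summit per gene 5 of 21 and 26 of 45. Peaks of at least 10 reads gave 0 summits in the repeats in replicate 1 and 2 in replicate 2. Neither of those 2 lay in the first 18 nt, so the pattern rests on small peaks. Over whole finger arrays, including units of other lengths, the linkers held 6 of 51 (11.8%) and 14 of 113 (12.4%) summits, against 19.8% of array bases.

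**Figure D5:**
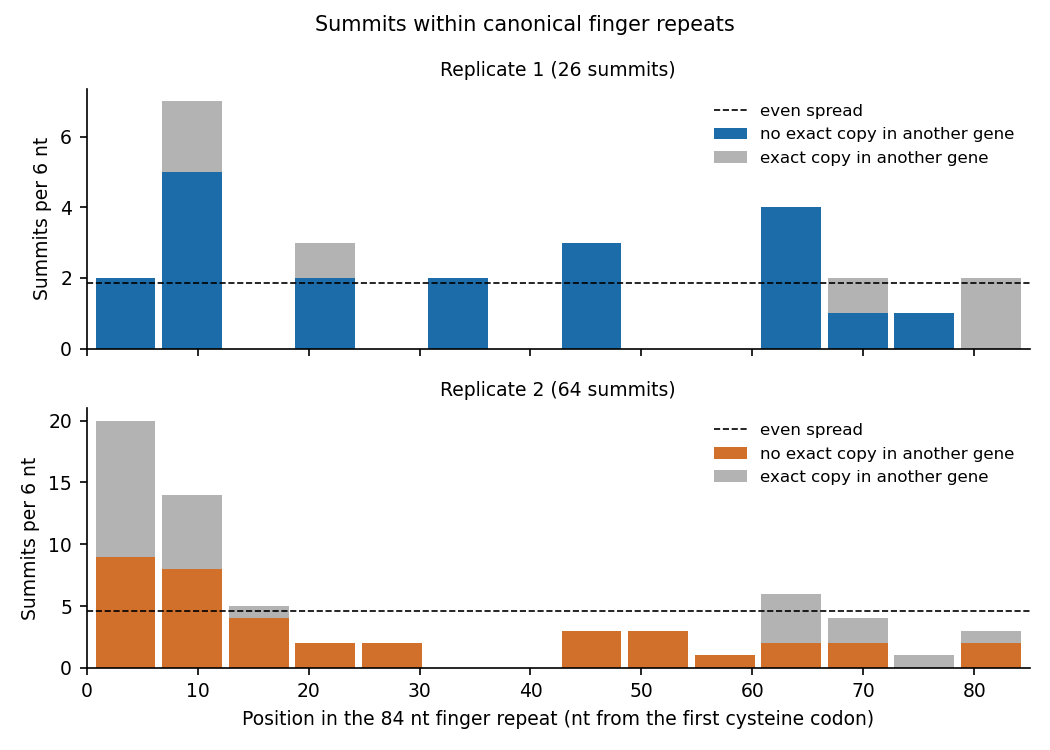
Bars count summits per 6 nt (y axis) along the 84 nt finger unit (x axis, nt from the first cysteine codon), in replicate 1 above and replicate 2 below, with summits that have an exact 25 nt copy in another gene in grey. The dashed line is an even spread. Replicate 2 has 20 and 14 summits in the first pair of bins, and replicate 1 has 2 and 7.

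KRAB-exon peaks were many for the length of these exons, but few in reads and often in shared sequence. They were led by ZNF561 (16 and 11 reads), ZNF480 (10 and 4), ZNF460 (13 and 0), ZNF562 (9 and 4) and ZNF226 (6 and 4). Of the KRAB-exon bases, 79.0% lie in the KRAB match itself, and 25 of 31 and 33 of 34 summits were there. An exact copy in another gene was present at 21 of 31 summits in replicate 1 and 12 of 34 in replicate 2, against 36.3% of KRAB-exon bases. In replicate 1, 20 of the 31 peaks shared at least 20 nt with another member peak of the same library, and in replicate 2, 13 of 34.

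The KRAB value was lower when summits in shared sequence were left out. With summits that have no exact copy, the ratio to an even spread was 3.19 ± 0.896, in place of 5.39 ± 1.16. The full exon length was kept in the even spread. Since 36.3% of KRAB-exon bases have a copy, the most of any class, a lower value is partly built into this count. Only 1 KRAB-exon peak, that of ZNF561 with 16 reads in replicate 1, had 10 or more reads. Up to 5 loci per read were allowed by the filter named in the deposited files, so a read may be counted at several KRAB exons. Of the 9 KRAB regions found in both libraries, those of ZNF480, ZNF766 and ZNF627 are the ones shown above.

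Finger repeats are known to hold many miR-181 seed sites, so these were counted. The members of the miR-181 family share the seed, shown in capitals for 2 of them from RefSeq.

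hsa-miR-181a-5p: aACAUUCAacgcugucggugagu
hsa-miR-181b-5p: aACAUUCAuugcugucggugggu

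The 6-base site GAAUGU occurred 1833 times in member finger exons, in 190 genes. Peaks covered 6 of these sites in replicate 1 and 20 in replicate 2, and 1 site, in ZNF121, was under peaks of both libraries (0.0546%, 0.00138 to 0.304). Of all finger-exon bases, 0.157% were under peaks of both libraries, a value inside that interval. The 7-base site UGAAUGU gave 4 and 8 of 817 sites, and the same 1 in both libraries. Repeats were then sorted by the sites inside the unit. A summit in the first 18 nt was present in 1 and 2 of 382 with the 7-base site. It was present in 2 and 9 of 835 with the 6-base site only, and in 6 and 28 of 1276 with no site counted. Sequence copied in another gene was present in 76.7%, 85.6% and 46.6% of these repeats, in that order. Its part in the counts was not tested. Sites that run across the start of a unit were not counted here. The ZNF121 site under peaks of both libraries is such a site, so its unit is among the 1276. Genes of the miR-181 family had peaks, among them MIR181A1 with 50 and 55 reads, MIR181B1 with 40 and 32 and MIR181C with 10 and 9. MIR181D had none. The host transcript MIR181A1HG was listed with 90 and 93 reads, so these peaks cannot be assigned to the mature microRNA alone.

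In the 3′ UTR, Pumilio elements lay under peaks at a higher share than 3′ UTR bases in general. Of 142 elements in 83 genes, 7 in replicate 1, 8 in replicate 2 and 6 in both, in 6 genes, lay wholly under peaks, and the share in both was 4.23% (1.57 to 8.97). Of all 3′ UTR bases 0.244% were under peaks of both libraries, a value below that interval. The 6 elements, printed above, were in peaks of 17 and 25 reads in ZNF146, 3 and 8 in ZNF460, 4 and 7 in ZNF709, 3 and 8 in ZNF850, 4 and 4 in ZNF260, and 3 and 4 in ZNF543. None of the 6 had an exact copy in another gene. The reversed element AUANAUGU, with the same bases, had 2 of 212 sites under peaks of both libraries, or 0.943% (0.114 to 3.37). That interval overlaps the interval of the Pumilio element. The reversed site in ZNF709, 1 of the 2, shares bases with the Pumilio element printed for that gene.

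Other 3′ UTR motifs showed little. AUUUA, the core of AU-rich elements, had 1 of 1273 sites under peaks of both libraries, and the GU repeat UGUGUGU 2 of 208. Seed sites of 7 bases gave 1 of 304 for miR-181, in a ZNF791 peak of 10 and 9 reads, and 1 of 28 for miR-101, in the ZNF709 peak. They gave 0 of 91 for miR-92, 0 of 148 for miR-17, 0 of 293 for miR-23, 0 of 40 for let-7, 0 of 43 for miR-16 and 0 of 26 for miR-19. With so few sites, a count of 0 is weakly bounded: the interval for let-7 runs up to 8.81%.

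The partners of KRAB proteins had peaks in both libraries. TRIM28, the corepressor, had 412 and 565 reads, of which 307 and 420 were in coding sequence. The heterochromatin proteins CBX3, CBX5 and CBX1 had 384 and 437, 289 and 330, and 192 and 220 reads. CHD4, a chromatin remodeller, had 221 and 255, and the remaining cofactors were lower, with ATF7IP at 38 and 39, SETDB1, the histone methyltransferase, at 24 and 98, and MORC3 at 20 and 42. Each of the 8 cofactors had peaks in both libraries, and SETDB1 differed most between them in relative terms. Of 19476 protein-coding genes without a ZNF symbol of this kind, 11946 and 11991 had a peak. The presence of peaks therefore does not set the cofactors apart.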

How the data were processed

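Each library has 1 deposited peak list, made by the authors without pooling. Per the submitters' processing notes, cutadapt 4.2, UMI-tools 1.1.4 and STAR 2.7.11 were used with GRCh38. Per the names of the deposited files, CLIPper called the peaks and reads were filtered to at most 5 loci (CLIPper's version and annotation: not given in the sources used here). Column 5 as deposited is a p-value per peak, with no adjustment stated, and the peak name holds a gene identifier and a whole number of reads. From these, gene models and transcripts of GENCODE 29 were used, with positions 1-based. Identifiers matched without their version. The centre of the thick interval was taken as the summit and assigned within its own gene on the same strand to 3′ UTR, coding sequence, 5′ UTR, non-coding exon or intron, in that order. A finger exon held at least 1 match to C-x(2,4)-C-x(12)-H-x(3,5)-H, and a KRAB exon at least 14 of 21 fixed residues. A position listed under more than 1 gene counted once, but kept its reads in each gene's own total. A copy is an exact match of the 25 nt around a summit in a transcript of another gene. Members, lists and tests were chosen with earlier results of these data known. The genes named are the 12 with the most reads, the 5 leading each of 4 regions and the 5 with the most regions in both libraries; others were named after their values were seen. Counting was tested on simulated data. Python 3.11.15 with numpy 2.4.6, scipy 1.17.1, pandas 2.3.3 and matplotlib 3.10.9 was used.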

Additional observations from a re-analysis of the deposited data

How the results depend on the processing

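No paired analysis was possible because there was 1 group. Values are means over both libraries; without ZNF146, without ZNF114, the KRAB ratios and the first 18 nt were tried after the data had been seen. With peaks of at least 10 reads the finger exon share was 11.8%, KRAB 1.56%, 3′ UTR 37.7% and 5′ UTR 22.7%, and with a deposited p-value at or under 1e-05 they were 14.7%, 1.75%, 35.9% and 22.2%. Weighted by reads they were 19.7%, 6.04%, 34.6% and 19.2%. Without exact copies, KRAB was 4.47%, the 3′ UTR 31.1% and the 5′ UTR 18.9%, and with exons of other genes also left out 4.74%, 34.3% and 18.5%. With coding sequence first the finger exon was 30.6% and the 3′ UTR 24.4%; the 3′ UTR was 27.7% without ZNF146 and 29.4% without ZNF114. Against an even spread, the finger exon was 0.860 weighted by reads and 0.546 at 10 reads or more. The 3′ UTR was 0.953, 0.814 without copies and 1.28 at 10 reads, and KRAB 3.19 without copies and 1.88 at 10 reads. Peaks in both libraries were 27.2% with 50% reciprocal overlap and 52.6% at the stricter p-value. The linker share was 12.6% by peak middle, 7.37% without copies and 0% at 10 reads. The first 18 nt held 66.7% at the stricter p-value, a mean that rests on only 2 of 2 and 1 of 3 summits. Leaving out 1 replicate gave 22.2% to 30.7% for the finger exon, 7.19% to 9.28% for KRAB, 28.3% to 29.04% for the 3′ UTR and 15.9% to 17.7% for the 5′ UTR. The ratios ranged over 0.937 to 1.31, 0.691 to 0.760 and 4.57 to 6.22 for finger exon, 3′ UTR and KRAB, peaks in both over 32.3% to 45.8%, linker over 11.8% to 12.4%, first 18 nt over 34.6% to 60.9%, and miR-181 sites under peaks over 0.327% to 1.09%. The cause of these shifts was not tested. Depth is unknown, and most peaks had 3 or 4 reads.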
